A study of Mus musculus with 18 samples.

Results

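The genes described here are 10 genes of skin leukocytes, listed by name and followed library by library in every group of a mouse RNA-seq series on corticosterone and hair follicle stem cells. They are Cd207, Cd74, H2-Aa, H2-Ab1, H2-Eb1, Lyz2, Cd83, Ptprc, Tyrobp and Fcer1g. All 10 were among the 52958 gene symbols of the dermal papilla tables and the 27933 of the hair follicle stem cell tables. Dermal papilla cells (DP) form the mesenchymal signalling centre at the base of the follicle. The epithelium of the follicle is rebuilt in each cycle from hair follicle stem cells (HFSC). Both were purified by flow cytometry, and the listed genes are known mainly from leukocytes, which neither sort was meant to collect.

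The series held 18 libraries in 9 groups of 2. In the deletion experiment, female mice of 129/C57BL/6 background carried Pdgfra-CreER and GR fl/fl (GR KO) or were wild type (Control), and mice of both groups received tamoxifen intraperitoneally for 6 days. Pdgfra-CreER acts in Pdgfra-expressing mesenchymal cells, which include the dermal papilla, so HFSC of GR KO mice came from animals with the receptor deleted in other cells. In the surgery experiment, wild-type female C57BL/6 mice underwent adrenalectomy with corticosterone feeding afterwards (ADX+CORT), adrenalectomy alone (ADX), so that the adrenal glands no longer supplied corticosterone, or a sham operation (Sham). HFSC were taken from all 3 of these groups, and DP from ADX and Sham. The labels do not say whether the 2 libraries of a group came from separate animals, and p-values therefore measure the spread between these libraries, which may be technical.

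DP libraries held 6194415 to 13941628 estimated reads, and HFSC libraries held 14067139 to 33014976 counted reads. Nr3c1, which encodes the glucocorticoid receptor deleted in GR KO, stood at 137 and 111 CPM in GR KO DP, against 671 and 978 CPM in Control DP (log2 fold change −2.73, SE 0.38, edgeR adjusted p = 0.0212). In HFSC it stood at 243 and 170.0 CPM in GR KO, against 257 and 338 CPM in Control, and did not pass. The unit CPM is the count scaled to a library size that was normalised with TMM. All 12 dermal papilla markers had reads in every DP library, and all 12 stem cell markers had reads in every HFSC library. The 8 markers of differentiated epidermis summed to 55.3 to 4068 CPM in DP libraries. The 2 cell types were counted with different methods and are not compared with each other.

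Of the listed genes, 3 lie near each other on chromosome 17 of GRCm38. H2-Ab1 spans 34257689 to 34269419 on the plus strand, H2-Aa spans 34282744 to 34287823 on the minus strand, and H2-Eb1 spans 34305867 to 34316674 on the plus strand. Cd74 lies on chromosome 18 (60803848 to 60812652), Cd207 on chromosome 6 (83671215 to 83677857), Lyz2 on chromosome 10 (117277331 to 117282321) and Cd83 on chromosome 13 (43784775 to 43803132). Ptprc (138062861 to 138175708) and Fcer1g (171229572 to 171234365) lie on chromosome 1, and Tyrobp on chromosome 7 (30413760 to 30417585). The libraries do not mark strand, so reads of H2-Eb1 cannot be told from those of the antisense gene Gm20513, nor reads of Ptprc from those of A130071D04Rik or reads of Cd74 from those of Mir5107 inside them. Lyz2 has a near-identical neighbour, Lyz1, and the split of reads between both is uncertain.

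MHC class II molecules display peptides from endocytosed proteins to CD4 T cells. H2-Aa encodes the alpha chain and H2-Ab1 the beta chain of the I-A molecule, and H2-Eb1 encodes the beta chain of I-E. Cd74 encodes the invariant chain, which escorts class II molecules to the endosome and blocks their groove on the way, and Cd83 encodes a surface protein of maturing dendritic cells that stabilises class II at the membrane. Cd207 encodes langerin, the lectin of the Birbeck granules of Langerhans cells, the antigen-presenting cells of the epidermis and of the upper follicle. Lyz2 encodes the lysozyme of macrophages, monocytes and neutrophils. Ptprc encodes CD45, a phosphatase found on nearly all leukocytes. Tyrobp (DAP12) and Fcer1g (the Fc receptor gamma chain) are adaptors that carry an activating ITAM motif and couple myeloid receptors to the kinase Syk.

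Class II genes are known to share a promoter module, an X box followed by a Y box, which is bound by the RFX and NF-Y complexes and through them by the coactivator CIITA. The RefSeq promoter table of GRCm38.p6 held windows for 6 of the 10 genes, each of 300 bases from 250 before to 50 after a start site. The windows of H2-Aa and H2-Eb1 are shown because they are the windows of listed genes that hold GCAAC, the core of the X box, upstream of the Y box CTGATTGG. Those letters are in capitals. The H2-Aa window is chr17:34287774-34288073 on the minus strand and the H2-Eb1 window is chr17:34305617-34305916 on the plus strand.
H2-Aa: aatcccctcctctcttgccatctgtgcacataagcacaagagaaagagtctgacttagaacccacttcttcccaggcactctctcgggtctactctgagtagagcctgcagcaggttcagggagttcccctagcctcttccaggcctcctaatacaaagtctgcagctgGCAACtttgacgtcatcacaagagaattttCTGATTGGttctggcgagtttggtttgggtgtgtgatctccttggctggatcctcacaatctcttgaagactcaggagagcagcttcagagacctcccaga
H2-Eb1: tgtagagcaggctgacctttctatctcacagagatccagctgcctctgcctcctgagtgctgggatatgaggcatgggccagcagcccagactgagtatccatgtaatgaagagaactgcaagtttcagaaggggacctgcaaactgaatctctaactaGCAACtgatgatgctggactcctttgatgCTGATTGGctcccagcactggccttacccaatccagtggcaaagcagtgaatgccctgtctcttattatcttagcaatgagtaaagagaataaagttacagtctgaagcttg
In H2-Aa the X core began 81 bases and the Y box 51 bases before the start site, a distance of 30 bases. In H2-Eb1 they began 91 and 62 bases before it, 29 bases apart. Both motifs were searched on both strands, and they do not overlap. GCAAC was in 35.2% and CTGATTGG in 4.1% of all 32851 windows. GCAAC followed by CTGATTGG at a distance of 20 to 40 bases was in 30 windows (0.0913%), among them those of H2-Aa, H2-Eb1 and the further class II genes H2-Eb2 and H2-Oa. The other windows of the listed genes (Cd207, Lyz2, Ptprc and Fcer1g) did not hold this pair of letter runs.

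In DP, 9 of the 10 genes passed the filter on low counts, and Cd207 did not. Cd207 had 3 and 2 reads in the GR KO libraries and 0 and 2 in the ADX libraries, against 0 and 0 in Control and 11 and 0 in Sham. The defining marker of Langerhans cells was thus at or near 0 in DP, and the name of that cell type does not describe the listed genes there. Of the 20 Langerhans and dendritic cell genes, 13 were tested in DP, and in GR KO against Control 7 of them were higher, 6 were lower and none passed. Per transcript length, the order in DP by the median over 8 libraries was Cd74 (151 TPM), Lyz2 (125 TPM), H2-Ab1 (87.1 TPM), H2-Aa (65.2 TPM), H2-Eb1 (39.9 TPM), Fcer1g (19.6 TPM), Tyrobp (19.4 TPM), Cd83 (4.05 TPM), Ptprc (3.09 TPM) and Cd207 (0.0731 TPM). The ranges of all neighbours in this order overlapped. In bulk samples, fewer cells of a type and less RNA per cell cannot be told apart.

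**Figure D1:**
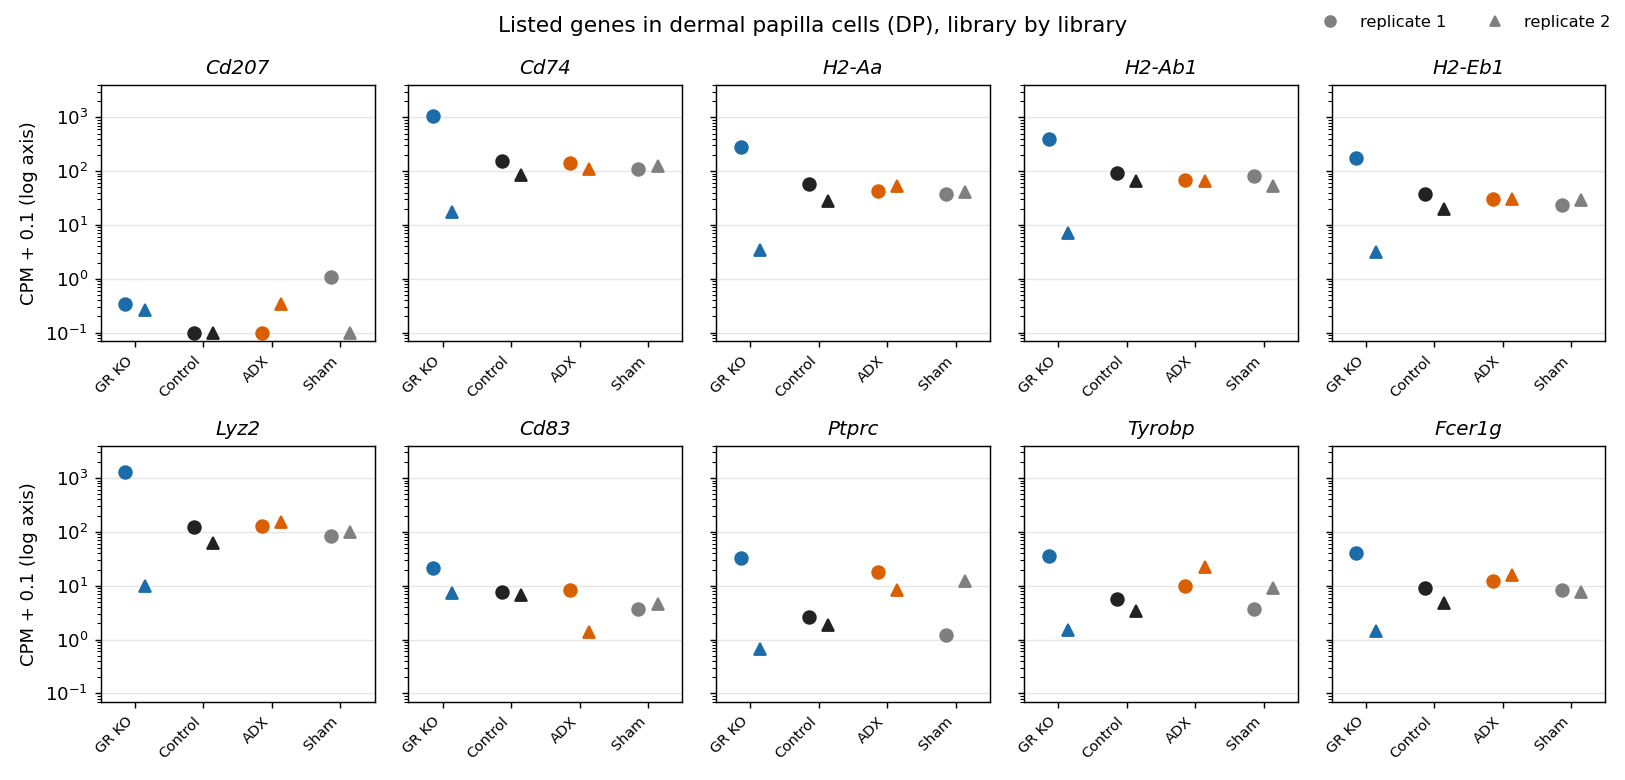
Level of each listed gene in the 8 DP libraries, as CPM with 0.1 added, on a log axis, with circles for replicate 1 and triangles for replicate 2. For 8 of the 10 genes the GR KO libraries lie on either side of both Control libraries, the exceptions being Cd207 and Cd83.

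Deletion of GR in dermal cells was compared with Control in DP. The listed genes split the GR KO libraries rather than the groups. Replicate 1 of GR KO held the highest level of 9 of the 10 genes among all 8 DP libraries, and replicate 2 held the lowest level of 8. Summed over the 10 genes, the level was 3344 and 50.8 CPM in GR KO, against 490.2 and 277 CPM in Control, 459.7 and 459 CPM in ADX, and 352 and 378 CPM in Sham.

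Among the class II genes, Cd74 stood at 1063 and 17.2 CPM in GR KO DP, against 157 and 84.3 CPM in Control. H2-Ab1 had 389.8 and 6.9 CPM in GR KO, against 91.6 and 65.4 CPM in Control. H2-Aa had 285 and 3.33 CPM in GR KO, against 56.9 and 28.2 CPM in Control. For each of them both Control libraries lay between the GR KO libraries. H2-Eb1 followed the same order, with 176 and 3.01 CPM in GR KO, against 37.4 and 19.3 CPM in Control. Lyz2 had the widest gap, with 1298 and 9.67 CPM in GR KO, against 122 and 62.8 CPM in Control. The adaptor Tyrobp stood at 36.0 and 1.43 CPM in GR KO, against 5.6 and 3.35 CPM in Control. Fcer1g, the other adaptor, had 41 and 1.35 CPM in GR KO, against 9.06 and 4.65 CPM in Control. Ptprc had 33.3 and 0.555 CPM in GR KO, against 2.52 and 1.77 CPM in Control. Cd83 had 21.2 and 7.21 CPM in GR KO, against 7.64 and 6.69 CPM in Control, and departed from this pattern, since GR KO replicate 2 lay within the Control range.

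With both GR KO libraries, edgeR called 0 of the 9 genes tested, at an adjusted p under 0.05, where 1.54% of all genes were called. None of the 9 was at an unadjusted p under 0.05, where 15.2% of all genes were. DESeq2 also called 0, where it called 4.69% of all genes as higher and 4.39% as lower. Without the filter on low counts edgeR called 6 of them as higher (Cd74, H2-Aa, H2-Ab1, H2-Eb1, Lyz2 and Ptprc), where it called 1.74% of all genes as higher, with the same libraries on either side of Control. All 9 log2 fold changes were above 0, as were those of 56.4% of all genes, and they ran from 0.98 (SE 0.86) for Cd83 to 2.97 (SE 1.49) for Ptprc. Their median was 1.76, against 0.17 over all genes tested. No gene of the 9 had GR KO libraries both above or both below the Control libraries, while 31.6% of all genes lay above and 20% below.

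Which GR KO library was kept decided the direction. Without GR KO replicate 2, the 5 genes Cd74, H2-Aa, H2-Ab1, H2-Eb1 and Lyz2 rose, where 0.514% of all genes rose. Their log2 fold changes were 3.14, 2.75, 2.32, 2.64 and 3.81, with edgeR adjusted p-values of 0.00879 to 0.0286. Without GR KO replicate 1 the same 5 fell, where 0.399% of all genes fell. They fell by 2.81 (Cd74), 3.68 (H2-Aa), 3.51 (H2-Ab1), 3.24 (H2-Eb1) and 3.26 (Lyz2) on the log2 scale, with edgeR adjusted p-values of 0.0163 to 0.0493. These fits leave 1 GR KO library, whose spread was taken from the other groups. Over the 9 alternatives the adjusted p of these 5 genes ran from 1.94e-13 to 0.965. No direction for the GR KO group is given here.

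**Figure D2:**
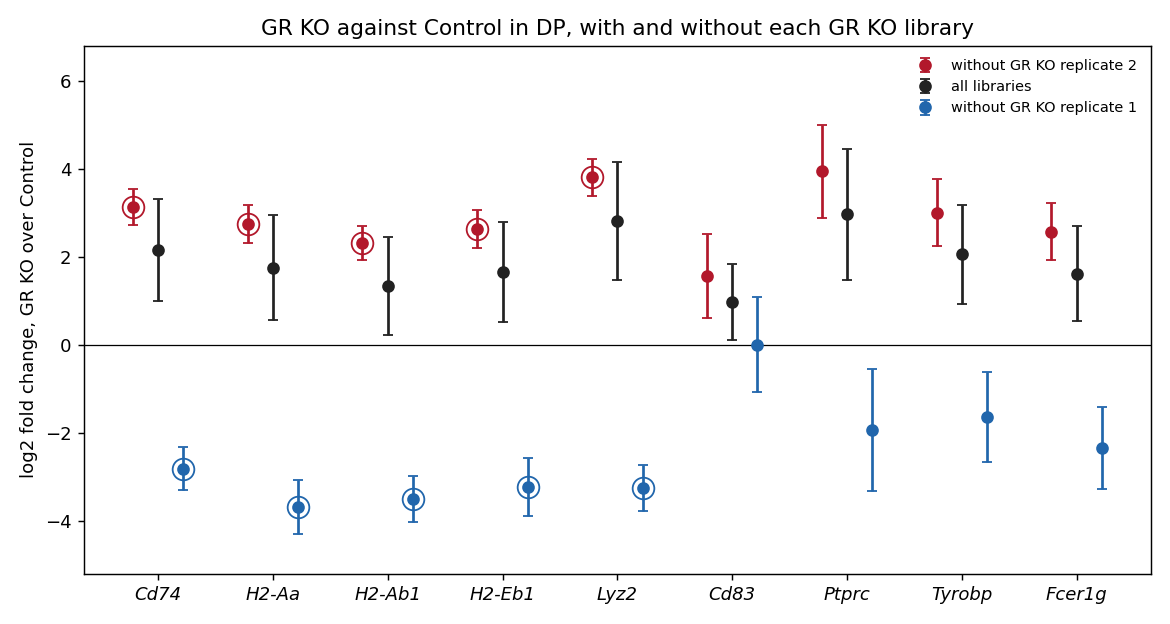
Log2 fold change of GR KO over Control in DP for the 9 genes tested, in fits without GR KO replicate 2 (red), with all libraries (black) and without GR KO replicate 1 (blue). Bars are 1 SE and an open ring marks an edgeR adjusted p under 0.05, which the same 5 genes reach with opposite signs in the red and blue fits and no gene reaches in the black one.

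The gap between the GR KO libraries was wide for these genes and not for most. The higher library exceeded the lower one by 2.94-fold (Cd83) to 134-fold (Lyz2), with a median of 58.5-fold over the 9 genes tested. Over all genes tested with reads in both libraries the median was 1.39-fold. In the other 3 DP groups the median over the 9 genes was 1.21-fold to 1.86-fold. Replicate 1 exceeded replicate 2 at least 10-fold for 8 of the 9 genes, and for 1.66% of the 23463 genes tested (390 genes).

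Other genes of macrophages were high in the same library. The 21 macrophage and monocyte genes, which include Lyz2, summed to 2660.5 and 271 CPM in GR KO, against 375 and 217 CPM in Control. C1qb, a subunit of complement C1q made by tissue macrophages, stood at 254 and 3.41 CPM in GR KO, against 37.1 and 14.8 CPM in Control. Csf1r, the receptor for the macrophage growth factor CSF1, had 156 and 9.51 CPM in GR KO, against 16.7 and 7.44 CPM in Control. Ccr2, the chemokine receptor of monocytes, had 37.0 and 0.476 CPM in GR KO, against 1.18 and 0.837 CPM in Control. None of these 3 passed with both libraries, while 1 of the 21 genes, not named here, rose, where 1.54% of all genes were called. Without GR KO replicate 2, 9 of the 21 genes rose (Lyz2, Csf1r, C1qa, C1qb, C1qc, Mrc1, Itgam, Ccr2 and Lyz1) and none fell. Without GR KO replicate 1, Lyz2 fell, and none of the listed genes rose, where 0.317% of all genes rose.

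Among 16 pan-leukocyte genes, Arhgdib alone rose in GR KO DP with all libraries (log2 fold change 1.68, edgeR adjusted p = 0.048). It stood at 107 and 118 CPM in GR KO, against 38.8 and 31.5 CPM in Control. With median-of-ratios scaling its adjusted p was 0.0628, with the other DP groups left out it was 0.0572, and it lay between 0.11 and 0.541 when any one of the 4 libraries was left out.

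Markers of other cell types also differed between the GR KO libraries. The 8 skeletal muscle genes summed to 463 and 28.9 CPM in GR KO, against 38.6 and 17.5 CPM in Control. The 7 endothelial genes summed to 94.2 and 22.8 CPM in GR KO, against 46.0 and 34.0 CPM in Control. Mast cell genes (9) summed to 58.3 and 5.23 CPM in GR KO, against 63.6 and 28.1 CPM in Control. Melanocyte genes (6) were not split this way, with 25.9 and 30.1 CPM in GR KO, against 68.0 and 91.1 CPM in Control. The 8 genes of differentiated epidermis summed to 663 and 55.3 CPM in GR KO, against 565 and 657 CPM in Control. Of these 8, Lor, which encodes the cornified envelope protein loricrin, fell, at 0.731 and 0.317 CPM in GR KO, against 43.6 and 22.5 CPM in Control (log2 fold change −5.95, SE 0.68, edgeR adjusted p = 0.0165). The 15 T cell genes summed to 84.1 and 232 CPM in GR KO, against 106 and 144 CPM in Control. Most of that sum was Thy1, at 70.1 and 229 CPM in GR KO, against 102 and 141 CPM in Control. Of the other T cell genes, Lck, Cd4 and Cd8a were also higher in GR KO replicate 2. The rest were higher in replicate 1, in which the listed genes were high, and reached at most 4.63 CPM (Cd2). The 14 genes of ITAM adaptors and Fc receptor partners that were tested, which include Tyrobp and Fcer1g, belong to a list that summed to 321 and 69.4 CPM in GR KO, against 76.1 and 79.3 CPM in Control. Of the stem cell markers, Krt14 stood at 145 and 0.396 CPM in GR KO, against 104 and 35.8 CPM in Control. Krt5 had 107 and 0.555 CPM in GR KO, against 69.3 and 18.5 CPM in Control. Krt15 had 73.2 and 0.396 CPM in GR KO, against 97.6 and 21.2 CPM in Control. Of 11 such markers tested, 4 had both GR KO libraries above both Control libraries, as did 31.6% of all genes. The stem cell markers summed to 1668 and 1311 CPM in GR KO, both above 879.9 and 489 CPM in Control. Cd34 made up most of the GR KO sums of these markers. Among them Cd34, which encodes a surface protein of follicle stem cells and other cell types, rose, at 947 and 943 CPM in GR KO, against 275 and 153 CPM in Control (2.14, SE 0.34, edgeR adjusted p = 0.0272, and 0.213 without Control replicate 2 or 0.0704 with the other DP groups left out). The dermal papilla markers summed to 1728 and 2339.8 CPM in GR KO, both below 3221 and 5333 CPM in Control, and none of the 12 passed. The part of other cells in the levels of the listed genes was not tested.

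MHC class I genes, which present cytosolic peptides in nearly all nucleated cells, did not follow the class II genes. The 20 class I genes summed to 6061 and 7559 CPM in GR KO DP, both above 4420.0 and 4187 CPM in Control, with the higher value in replicate 2. Of the 20, 17 were higher, as were 56.4% of all genes. Both GR KO libraries lay above both Control libraries for 11, as for 31.6% of all genes, and none passed the test. The class II list of 21 genes summed to 2368 and 250.5 CPM in GR KO, against 559 and 381 CPM in Control. It includes the listed genes Cd74, H2-Aa, H2-Ab1, H2-Eb1 and Cd83. These made up most of the sum in GR KO replicate 1 and little of it in replicate 2. Of its regulators, Ciita, the class II coactivator, had 5.03 and 0.634 CPM in GR KO, against 0.236 and 0.186 CPM in Control. Rfx5, a subunit of the RFX complex that binds the X box, had 25.3 and 19.7 CPM in GR KO, against 8.75 and 8.09 CPM in Control. Both were above both Control libraries without passing (edgeR adjusted p = 0.27 and 0.142). Ctss, the protease cathepsin S that trims the invariant chain, had 93.8 and 3.01 CPM in GR KO, against 10.2 and 5.95 CPM in Control.

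The estimated counts of the DP tables give the transcripts behind these levels. Cd74 has a transcript with a coding length of 645 bases (215 codons) and a pair of longer ones of 837 bases (279 codons). The first of the longer ones held 23.5% of the reads of the gene in GR KO replicate 1 and 0% in GR KO replicate 2, against 17.2% and 16.4% in Control. In GR KO replicate 2 the other longer transcript held 49.9 estimated reads, beside 167 on the shorter one. The first held 20% and 31.0% in ADX, and 21.9% and 9.87% in Sham. The shorter form was the main one in every library. Most Cd83 reads were on a retained-intron transcript, which held 75.1% and 64.4% of them in GR KO, 80.5% and 76.2% in Control, all in both ADX libraries, and 85.9% and all in Sham. For Ptprc that share was 13.1% and 0% in GR KO, 38.1% and 10.5% in Control, 72.6% and 96.1% in ADX, and 84.9% and 16.5% in Sham. Over all genes, retained-intron transcripts held 4.96% to 7.39% of the estimated reads of a DP library. The high Ptprc level of GR KO replicate 1, 410.0 estimated reads, was therefore mainly on transcripts of other types. The 128 and 70.5 reads of the ADX libraries were mainly on retained-intron transcripts.

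Adrenalectomy was compared with sham surgery in DP. None of the 9 genes tested passed in edgeR, where 0.017% of all genes did, and none was at an unadjusted p under 0.05, where 11.7% of all genes were. DESeq2 called 0, where it called 1.15% of all genes as higher and 1.81% as lower. Lyz2 stood at 126 and 154 CPM in ADX, against 82.1 and 99.3 CPM in Sham (log2 fold change 0.63, SE 1.26). Tyrobp had 9.87 and 22.6 CPM in ADX and 3.66 and 9.1 CPM in Sham (1.35, SE 1.11). Fcer1g had 12.1 and 15.9 CPM in ADX, against 8.36 and 7.65 CPM in Sham (0.81, SE 1.06). H2-Aa was at 43.4 and 51.9 CPM in ADX, against 38.2 and 40.4 CPM in Sham, and H2-Eb1 at 30.6 and 30.5 CPM in ADX, against 23.4 and 28.7 CPM in Sham. These 5 genes had both ADX libraries above both Sham libraries, as did 23.9% of all genes. Cd74, H2-Ab1, Cd83 and Ptprc overlapped between the groups, with Cd74 at 142 and 109 CPM in ADX and 110.3 and 123 CPM in Sham. All 9 log2 fold changes were above 0, with a median of 0.28 against 0.08 over all genes, where 53.5% were above 0. Standard errors ran from 0.87 to 1.39 on the log2 scale, and changes of 1 SE or somewhat more were not detectable. Tyrobp, at 1.35 with an SE of 1.11, had an edgeR adjusted p of 0.66.

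Most class I genes had values below 0 in ADX DP. Of 20, 19 had a log2 fold change below 0 (median −0.49) and 10 had both ADX libraries below both Sham libraries, as did 19.4% of all genes. They summed to 2742 and 3469 CPM in ADX, against 4499 and 5359.6 CPM in Sham, and none passed in edgeR. The macrophage genes summed to 371 and 403 CPM in ADX and 265 and 315 CPM in Sham. The pan-leukocyte genes summed to 249 and 325 CPM in ADX and 114 and 139.6 CPM in Sham. Among the latter, Srgn alone stood at 83.8 and 197 CPM in ADX, against 27.5 and 20.1 CPM in Sham. Of the 16 pan-leukocyte genes, 5 had both ADX libraries above both Sham libraries, as did 23.9% of all genes, and 2 had both below. The genes of differentiated epidermis summed to 444 and 259.5 CPM in ADX, below 1079.9 and 4068 CPM in Sham. Their part in the results for the listed genes was not tested.

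In HFSC, all 10 genes passed the filter on low counts. Their levels differed between the experiments far more than between the groups within either. Summed over the 10 genes, the level was 3632 and 4690.4 CPM in GR KO, against 3929 and 4152 CPM in Control. It was 90.0 and 193 CPM in ADX+CORT, 172 and 257 CPM in ADX, and 82.2 and 107 CPM in Sham. Strain, tamoxifen and experiment differ together here and cannot be told apart.

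**Figure D3:**
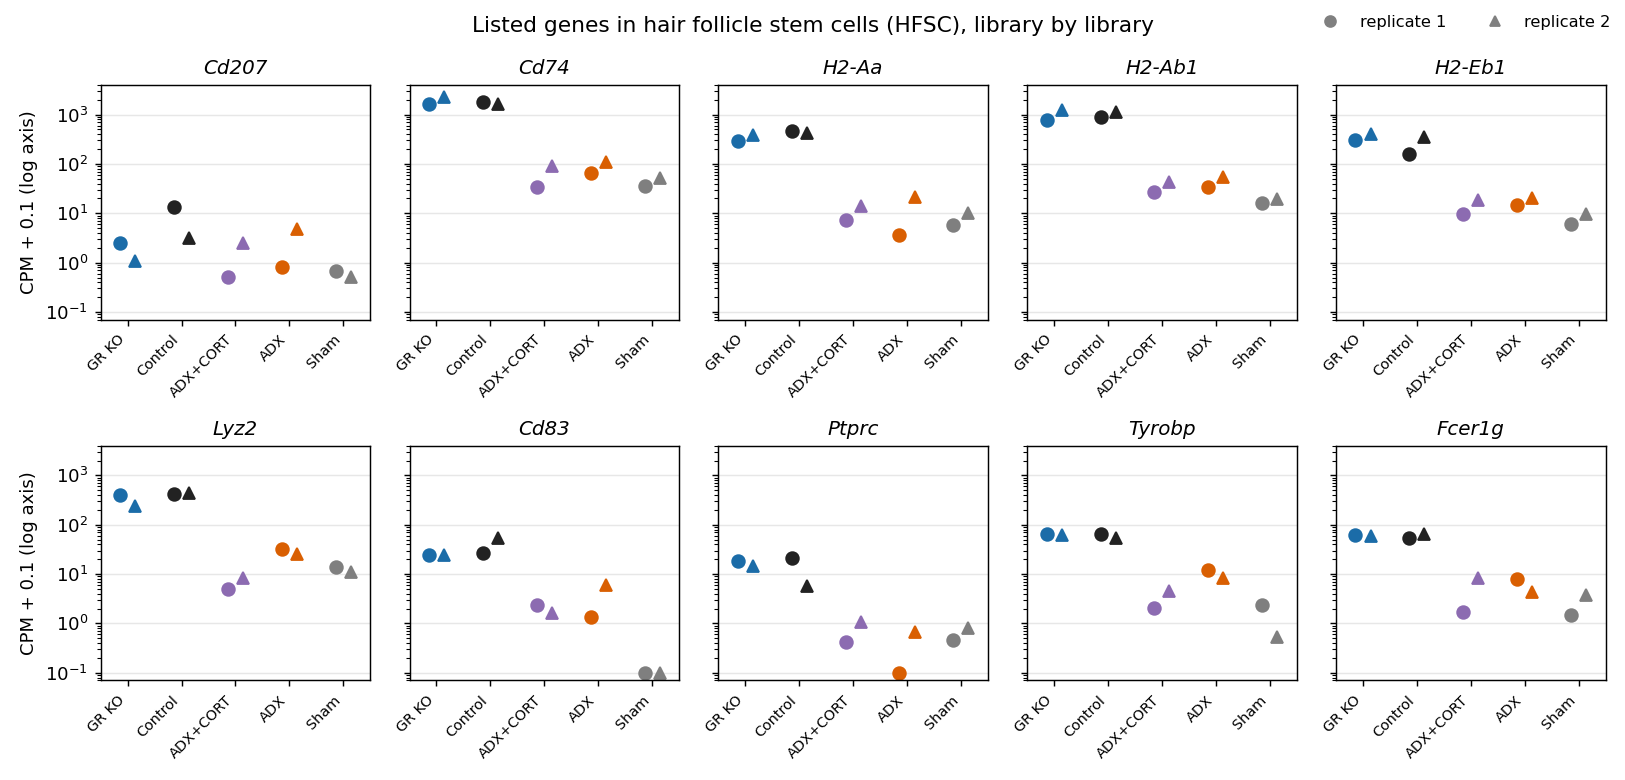
Level of each listed gene in the 10 HFSC libraries, as CPM with 0.1 added, on a log axis, with circles for replicate 1 and triangles for replicate 2. For every gene but Cd207 the 4 libraries of the deletion experiment (GR KO and Control) lie above the 6 libraries of the surgery experiment (ADX+CORT, ADX and Sham).

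For 9 of the 10 genes, each of the 4 libraries of the deletion experiment was above all 6 libraries of the surgery experiment, where 2.62% of all 15231 genes were. Cd74 ran from 1625 to 2279 CPM in the deletion experiment (median 1720.1 CPM) and from 34.4 to 111 CPM in the surgery experiment (median 59.2 CPM), a ratio of medians of 29.1. H2-Aa had the highest ratio, 47.0, with 294 to 465 CPM against 3.52 to 21.4 CPM. H2-Ab1 ran from 794 to 1224 CPM in the deletion experiment and from 16.2 to 54.6 CPM in the surgery experiment (ratio 33.4). The ratio was 34.4 for Lyz2, 34.8 for Ptprc, 26.8 for H2-Eb1, 19.6 for Tyrobp, 18.4 for Cd83 and 15.6 for Fcer1g. All 9 were thus at least 10-fold higher by the median without overlap, as were 1.54% of all genes (235 genes).

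Cd207 was the exception. It stood at 1 to 13.5 CPM in the deletion experiment and at 0.424 to 4.8 CPM in the surgery experiment, and the ranges overlapped (ratio 4.29). Langerin was therefore the gene of the list that followed the split least, and it was low in all HFSC libraries. Macrophage genes split as the listed genes did, with 17 of 21 above in every library of the deletion experiment and 12 of them at least 10-fold. C1qc ran from 103 to 145 CPM in the deletion experiment and from 0.587 to 5.79 CPM in the surgery experiment. Cd209a, a lectin of dermal dendritic cells, ran from 43.3 to 52.6 CPM in the deletion experiment and from 0 to 0.844 CPM in the surgery experiment. C1qc and Cd209a were named after their values were seen. Of 16 pan-leukocyte genes 14 lay above without overlap, as did 9 of 14 genes of ITAM adaptors and Fc receptor partners, 12 of 20 class II genes and none of 6 mast cell genes, and of 17 Langerhans and dendritic cell genes tested 6 did. The counts for pan-leukocyte, adaptor and class II genes include listed genes.

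**Figure D4:**
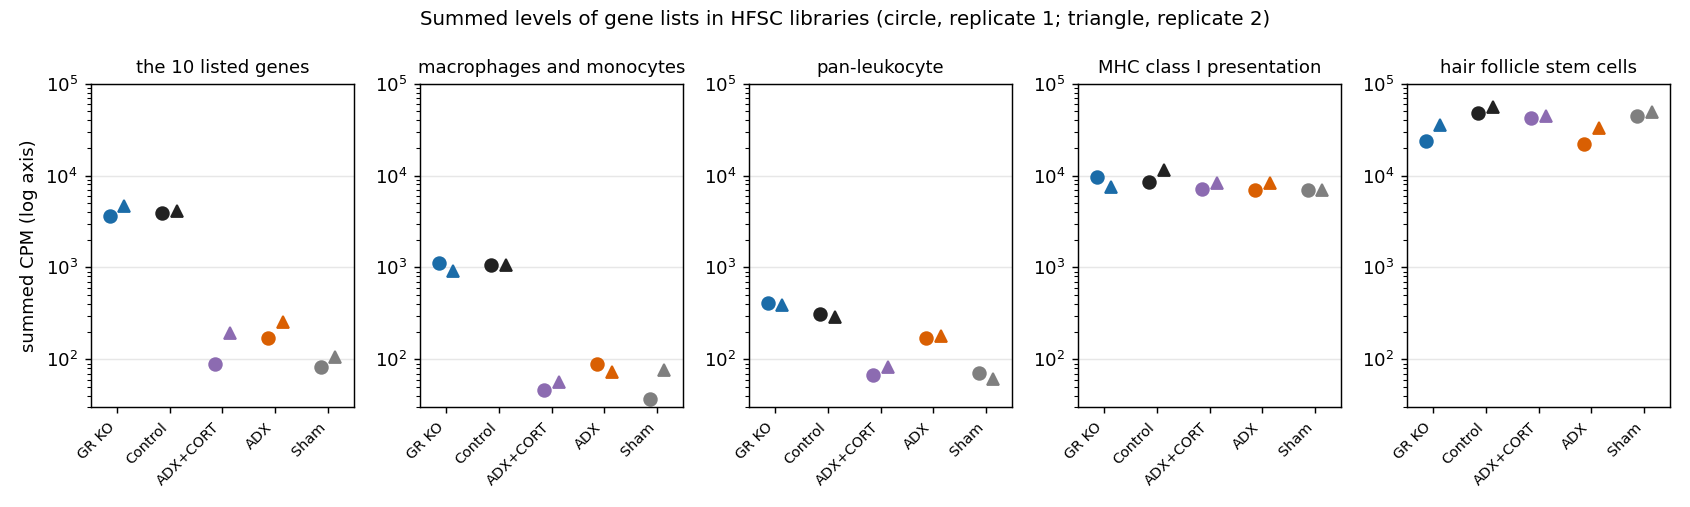
Summed CPM of the 10 listed genes and of 4 gene lists in each HFSC library, on a log axis, with circles for replicate 1 and triangles for replicate 2. The listed genes, the macrophage genes (which include Lyz2) and the pan-leukocyte genes (which include Ptprc) are higher in GR KO and Control than in ADX+CORT, ADX and Sham, while the class I and stem cell genes are not split this way.

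Class I genes and stem cell markers were not split in this way. The 20 class I genes summed to 7549 to 11609.8 CPM in the deletion experiment and to 6876 to 8394 CPM in the surgery experiment, and 1 of the 20 lay above without overlap. No listed gene lay below in every library of the deletion experiment, where 0.847% of all genes did. The 12 stem cell markers summed to 23652 to 55638 CPM in the deletion experiment and to 21964 to 48877 CPM in the surgery experiment, and none lay above. Of 11 T cell genes tested, 2 lay above without overlap. In DP the same division by experiment was not seen, since none of the 9 genes tested lay above or below without overlap, where 5.63% of all genes lay above and 16% below.

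Per transcript length, the order in HFSC by the median over 10 libraries was Cd74 (168 TPM), H2-Ab1 (70.4 TPM), Lyz2 (51.2 TPM), H2-Eb1 (38.8 TPM), Tyrobp (34.0 TPM), H2-Aa (22 TPM), Fcer1g (22 TPM), Cd83 (4.59 TPM), Cd207 (2.76 TPM) and Ptprc (0.113 TPM). These lengths join all exons of a gene, 18313 bases for Ptprc, which lowers its value. The ranges of all neighbours overlapped, since each spans both experiments.

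Adrenalectomy was compared with sham surgery in HFSC. Among the class II genes, H2-Ab1 stood at 34.0 and 54.6 CPM in ADX, against 16.2 and 19.4 CPM in Sham (log2 fold change 1.32, SE 0.32, edgeR adjusted p = 0.0901). H2-Eb1 had 14.8 and 20.6 CPM in ADX and 5.99 and 9.39 CPM in Sham (1.21, SE 0.41, edgeR adjusted p = 0.186). Cd74 had 65.7 and 111 CPM in ADX, against 36.1 and 52.7 CPM in Sham (1.0, SE 0.40, edgeR adjusted p = 0.256). In these 3 genes both ADX libraries were above both Sham libraries. H2-Aa overlapped, with 3.52 and 21.4 CPM in ADX and 5.76 and 9.89 CPM in Sham.

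Of the myeloid genes, Tyrobp stood at 12 and 8.19 CPM in ADX, against 2.23 and 0.424 CPM in Sham (log2 fold change 2.88, SE 0.55, edgeR adjusted p = 0.0545). Over the 9 alternatives the adjusted p of Tyrobp ran from 2.98e-10 to 0.232 and was past the threshold in 3, among them the fit without ADX replicate 2 (0.0297). Lyz2 had 32.5 and 25.2 CPM in ADX and 13.6 and 10.7 CPM in Sham (1.24, SE 0.31, edgeR adjusted p = 0.0959). Fcer1g had 8.02 and 4.21 CPM in ADX, against 1.41 and 3.67 CPM in Sham, and Cd207 had 0.703 and 4.8 CPM in ADX, against 0.587 and 0.424 CPM in Sham. All 4 were above both Sham libraries and none passed. Ptprc was too low to compare, with 0 and 10 reads in ADX and 6 and 10 reads in Sham.

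Cd83 was the only one of the 10 genes that passed, where 0.295% of all genes did, and it rose, as did 0.282% of all genes. It had 18 and 103 reads in ADX and none in either Sham library, at least 40.2-fold higher in ADX against a floor of 3 reads over the Sham group (edgeR adjusted p = 0.0387). The call was lost with the replicate number as a block (0.0558), with the other HFSC groups left out (0.0742), without Sham replicate 1 (0.177) and without Sham replicate 2 (0.102), and over all alternatives the adjusted p ran from 7.95e-15 to 0.177. In all, 9 of the 10 log2 fold changes were above 0, with a median of 1.26 against 0.00 over all genes, where 49.6% were above 0. For 8 genes both ADX libraries lay above both Sham libraries, as for 25.5% of all genes, and 6 were at an unadjusted p under 0.05, as were 15.2% of all genes. DESeq2 called 5 of the 10 as higher (Cd83, H2-Ab1, H2-Eb1, Lyz2 and Tyrobp), where it called 3.95% of all genes as higher. Without the filter on low counts edgeR called 7 of the 10 as higher, where it called 3.26% of all genes as higher. Sham libraries held 10 and 6 reads of Cd207, so its precision was low.

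The rest of the class II list was mixed in ADX HFSC. Ctss stood at 5.2 and 2.34 CPM in ADX, against 0.94 and 1.41 CPM in Sham (1.68, SE 0.41, edgeR adjusted p = 0.0923), and the thiol reductase gene Ifi30 at 99.2 and 89.0 CPM in ADX, against 59.9 and 65.5 CPM in Sham. Of the 20 class II genes tested on the whole list, 1 rose, the member Cd83. On that list 13 were higher, as were 49.6% of all genes. Among the 13 were the listed genes Cd74, H2-Aa, H2-Ab1, H2-Eb1 and Cd83. Of the pan-leukocyte genes Arhgdib rose, at 149 and 156 CPM in ADX and 44.9 and 43.4 CPM in Sham (1.78, SE 0.25, edgeR adjusted p = 0.0193), and its call was lost without Sham replicate 1 (0.151), Sham replicate 2 (0.104) or ADX replicate 1 (0.0623). Laptm5, which encodes a lysosomal protein of leukocytes, had 5.34 and 5.26 CPM in ADX, against 1.76 and 1.55 CPM in Sham (1.67, SE 0.36, edgeR adjusted p = 0.071). The macrophage genes Cd163 (0.422 and 3.39 CPM in ADX), Aif1 and Mpeg1 had no read in Sham and did not pass. The whole macrophage list summed to 88.8 and 73.1 CPM in ADX and 37.0 and 76.8 CPM in Sham. Stem cell markers summed to 21964 and 32908 CPM in ADX, below 43998 and 48877 CPM in Sham. The sums of marker lists of other cell types went both ways. Dermal papilla markers summed to 91.7 and 109.5 CPM in ADX, below 148 and 133 CPM in Sham. Yet of the 8 tested, 5 were higher, as were 49.6% of all genes, and 2 were lower. Melanocyte markers summed to 106 and 113 CPM in ADX, below 121 and 138 CPM in Sham. Most of that sum was Mitf, at 66.1 and 76.1 CPM in ADX, against 110.0 and 123 CPM in Sham. Of the 6 markers, 3 (Dct, Tyrp1 and Pmel) had both ADX libraries above both Sham libraries, as did 25.5% of all genes. Dct stood at 19.4 and 22.1 CPM in ADX, against 5.76 and 8.76 CPM in Sham. Lists of endothelium, T cells and differentiated epidermis were higher in both ADX libraries. The endothelial genes summed to 20.3 and 12.4 CPM in ADX, against 5.46 and 6.36 CPM in Sham. Of the 7, 5 had both ADX libraries above both Sham libraries, as did 25.5% of all genes. All were low, at most 6.61 CPM (Pecam1) in these libraries. T cell genes summed to 17.9 and 15.7 CPM in ADX, against 0.822 and 8.48 CPM in Sham. Genes of differentiated epidermis summed to 5112 and 5796 CPM in ADX, against 2648 and 4133 CPM in Sham. Among them Lor and Flg2 had both ADX libraries below both Sham libraries. No gene of these lists passed. The part of these differences in the results for the listed genes was not tested.

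Corticosterone feeding after adrenalectomy was compared with adrenalectomy alone in HFSC. Lyz2 stood at 4.88 and 8.36 CPM in ADX+CORT, against 32.5 and 25.2 CPM in ADX (log2 fold change −2.12, SE 0.32, edgeR adjusted p = 0.0573), and without ADX replicate 2 the adjusted p was 0.0158 (0.345 without ADX replicate 1). Tyrobp had 1.91 and 4.34 CPM in ADX+CORT and 12 and 8.19 CPM in ADX (−1.68, SE 0.51, edgeR adjusted p = 0.0996). In these 2 genes both ADX+CORT libraries were below both ADX libraries, as in 25.8% of all genes. The other 8 overlapped, among them Cd74 with 34.4 and 90.8 CPM in ADX+CORT and 65.7 and 111 CPM in ADX. H2-Ab1 likewise had 27.4 and 43.9 CPM in ADX+CORT, against 34.0 and 54.6 CPM in ADX.

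None of the 10 genes, and 0% of all genes, passed in edgeR, while 19.3% of all genes were at an unadjusted p under 0.05, Lyz2 and Tyrobp among them. DESeq2 called 1278 genes, Lyz2 and Tyrobp among them, both lower, where it called 5.4% of all genes as lower. Without the filter edgeR called the same pair, where it called 3.55% of all genes as lower. Over all alternatives the adjusted p of Lyz2 ran from 1.2e-10 to 0.345 and that of Tyrobp from 0.000359 to 0.498. In this comparison 9 of the 10 log2 fold changes were below 0, with a median of −0.41 against 0.002 over all genes, where 48.9% were below 0. Csf1r, a macrophage gene that is not among the 10, stood at 4.56 and 4.13 CPM in ADX+CORT and 0.141 and 0 CPM in ADX (edgeR adjusted p = 0.0573). Arhgdib had 44.9 and 61.1 CPM in ADX+CORT, against 149 and 156 CPM in ADX (−1.52, edgeR adjusted p = 0.0573). T cell genes summed to 3.4 and 8.63 CPM in ADX+CORT, below 17.9 and 15.7 CPM in ADX, and stem cell markers to 41858 and 43943 CPM in ADX+CORT, above 21964 and 32908 CPM in ADX. Their part in the results was not tested. This comparison and that of ADX with Sham use the same ADX libraries, so their signs are not independent.

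The groups ADX+CORT and Sham were therefore also compared directly. None of the 10 genes passed in edgeR, where 0% of all genes did. At an unadjusted p under 0.05 were 4 of the 10 and 6.09% of all genes. The log2 fold changes were above 0 for 9 of the 10, against 50.8% of all genes. Lyz2 had 4.88 and 8.36 CPM in ADX+CORT, below 13.6 and 10.7 CPM in Sham (−0.88, SE 0.32, edgeR adjusted p = 0.768), the only gene of the list with both libraries below Sham, where 19.1% of all genes were below. H2-Ab1 (27.4 and 43.9 CPM in ADX+CORT, 16.2 and 19.4 CPM in Sham), H2-Eb1 and Cd83 had both ADX+CORT libraries above both Sham libraries, as did 21.5% of all genes. Cd83 had 42 and 28 reads in ADX+CORT and none in Sham, at least 19.5-fold higher against the same floor (edgeR adjusted p = 0.227, or 0.00294 in DESeq2). It was the 1 of the 10 that DESeq2 called, where it called 0.364% of all genes as higher, and without the filter edgeR called Cd83 and H2-Ab1, where it called 0.841% as higher. Over the alternatives the adjusted p of Cd83 ran from 1.19e-09 to 0.617. Endothelial genes summed to 23.8 and 13.1 CPM in ADX+CORT, above 5.46 and 6.36 CPM in Sham, and genes of differentiated epidermis to 5183 and 7212 CPM in ADX+CORT, above 2648 and 4133 CPM in Sham. Their part in the results was not tested either.

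**Figure D5:**
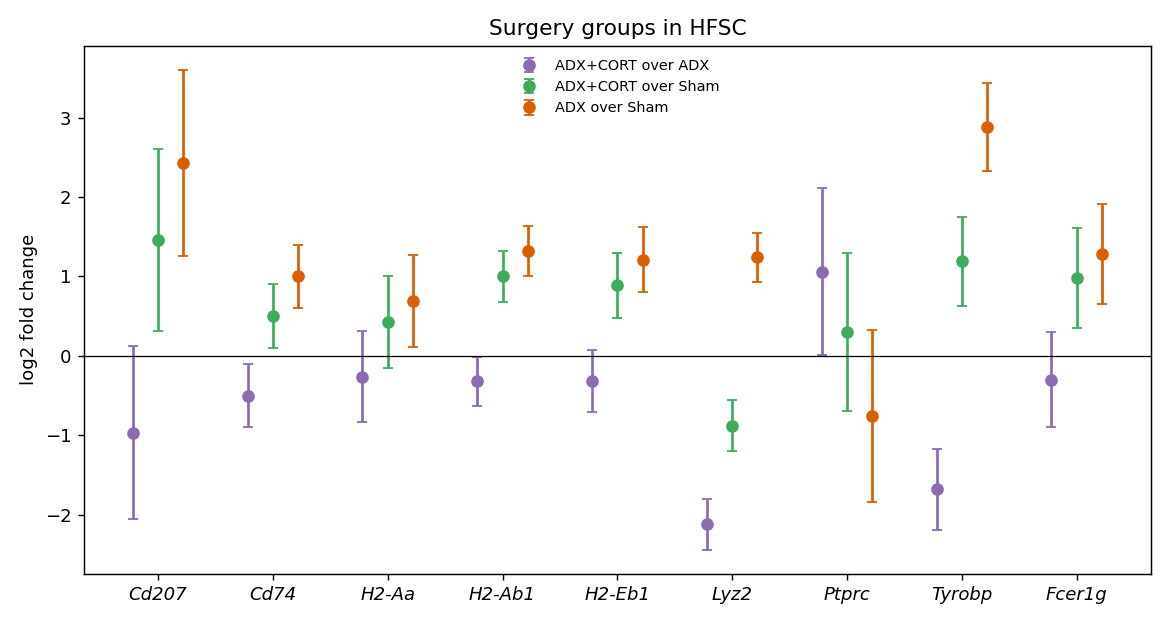
Log2 fold changes in HFSC for ADX+CORT over ADX (purple), ADX+CORT over Sham (green) and ADX over Sham (orange), with bars of 1 SE, for the 9 listed genes other than Cd83, which had no read in Sham. Lyz2 is above 0 in ADX over Sham and below 0 in both comparisons of ADX+CORT, and the class II genes keep values above 0 in ADX+CORT over Sham.

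Deletion of GR in dermal cells was compared with Control in HFSC. Cd74 stood at 1657 and 2279 CPM in GR KO, against 1784 and 1625 CPM in Control (log2 fold change 0.21, SE 0.39). H2-Ab1 had 794 and 1224 CPM in GR KO, against 909 and 1142 CPM in Control (−0.02, SE 0.31). H2-Eb1 had 305 and 409 CPM in GR KO, against 161 and 354 CPM in Control. The groups overlapped in these 3 genes. H2-Aa had 294 and 380.3 CPM in GR KO, below 465 and 419 CPM in Control (−0.39, SE 0.54). Lyz2 had 409 and 236 CPM in GR KO, below 429 and 431 CPM in Control (−0.42, SE 0.30). Cd83 (24.7 and 24.3 CPM in GR KO, against 26.6 and 53.1 CPM in Control) and Cd207 (2.41 and 1 CPM in GR KO, against 13.5 and 3.13 CPM in Control) were the other 2 of the 4 genes with both GR KO libraries below both Control libraries, as were 19.1% of all genes. Tyrobp, Fcer1g and Ptprc overlapped, with Tyrobp at 65.5 and 63.2 CPM in GR KO, against 65.9 and 54.5 CPM in Control.

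None of the 10 genes passed in edgeR, where 0.985% of all genes did, and none was at an unadjusted p under 0.05, where 13.1% of all genes were. DESeq2 called 0, where it called 2.93% of all genes as higher and 1.82% as lower. The log2 fold changes were above 0 for 5 genes and below 0 for 5, against 50.4% and 49.3% of all genes, with a median of 0.01 against 0.005 over all genes. The macrophage genes summed to 1113 and 909.9 CPM in GR KO, against 1057 and 1069.6 CPM in Control. Of the 21, none passed. The stem cell markers summed to 23652 and 35828 CPM in GR KO, below 47536 and 55638 CPM in Control, and of them Cd34 fell (−1.49), a call lost without Control replicate 1 (edgeR adjusted p = 0.0663), Control replicate 2 (0.187) or GR KO replicate 2 (0.121), and with the other HFSC groups left out (0.064). The part of that difference in the results for the listed genes was not tested.

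The listed genes varied together. Over the 8 DP libraries the 36 pairs of the 9 genes tested had a median Pearson r of 0.88 on log2 CPM (0.05 to 1.0). Without the GR KO libraries, the 2 farthest from the median, the median over 6 libraries was 0.43 (−0.61 to 0.95), so the likeness in DP rested on those libraries. In HFSC the libraries fall into a cluster for each experiment, and within the 6 libraries of the surgery experiment the median of 45 pairs was 0.55 (−0.52 to 0.97). These values are descriptions, and libraries of a group share their condition.

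The genes most like them were chosen by the median r with the listed genes. In DP they were C1qc (0.98), Spi1 (0.97), Cd53 (0.96), Ccl6, C1qb and Cbr2 (0.95 each), Lyz1, C1qa and Wfdc17 (0.94 each) and Emb (0.93), out of 23463 genes. Spi1 encodes PU.1, a transcription factor of myeloid cells, and Cd53 a tetraspanin of leukocytes. Without the GR KO libraries the values of these 10 ran from 0.00 (Cbr2) to 0.80 (C1qc). In HFSC, over all 10 libraries, where the value mainly repeats the split by experiment, they were Mgl2 (0.97), Pltp (0.96), H2-DMa, Lilr4b, Mettl7b, Fcgr2b, Laptm5, Cd209a and Ccl24 (0.95 each) and Oas2 (0.94), out of 15231. Mgl2 encodes a lectin of dermal dendritic cells and macrophages, and Fcgr2b the inhibitory Fc gamma receptor. H2-DMa encodes a chain of the molecule that loads peptide onto class II. Within the surgery experiment these 10 had values of 0.42 to 0.69.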

How the data were processed

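RNA of flow-sorted DP (8 libraries) and HFSC (10 libraries) was amplified with SMART-Seq v4, per the labels' protocols. The authors' DP files hold the estimated count of each transcript. The submitters' processing notes name Salmon and the build mm10. The authors' HFSC files hold read counts per gene, made with Trim Galore 0.4.1 and STAR 2.5.3 per those notes and with featureCounts 1.6.1 (minimum mapping quality 30) per the file headers, which also give each gene's exon length. The notes name DESeq2 1.22.2 as well. The Salmon version and the annotation are not given in the sources used here.

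DP estimated counts, as deposited, were summed to 52958 gene symbols through the GENCODE M21 annotation of GRCm38 (150 of 134967 transcripts had no match and held at most 0.0752% of a library) and rounded. TPM were computed from transcript lengths (DP) or the deposited exon lengths (HFSC). In 2 HFSC files 27 gene names had been turned into dates, and none is a listed gene. DP and HFSC were fitted apart, every group having its own coefficient, with edgeR 4.0.16 (TMM, filterByExpr, quasi-likelihood test, Benjamini-Hochberg over all 23463 DP or 15231 HFSC genes, threshold 0.05) under R 4.3.3, tested on simulated data first. The SE was derived from the F statistic. Alternatives were median-of-ratios scaling, DESeq2 1.42.0, no filter, only the groups compared, a replicate block and leaving out each library. Correlations used log2 CPM with a prior count of 2. Intervals of counting error are not given, and the floor of 3 reads covers counting error only. Promoter sequences are from RefSeq (GRCm38.p6). Beside the listed genes, the text names list genes past the threshold, otherwise up to 4 per list and comparison with the smallest p, and the 10 genes of each cell type most like the listed ones. Some list genes that this rule would name are not reported here. The members and lists were chosen with earlier results of these data known.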

Additional observations from a re-analysis of the deposited data

Results flagged for a closer look

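Cd207 went opposite ways in the 2 cell types of the deletion experiment. In DP both GR KO libraries had reads (mean 0.201 CPM) and both Control libraries had none. In HFSC both GR KO libraries were below both Control libraries, with a mean of 1.71 CPM in GR KO. The DP value rests on 3 and 2 reads, and the difference between the cell types was not tested.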

How the results depend on the processing

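The number of genes called depended on the tool. The 6 comparisons are given in 1 order, ADX with Sham and GR KO with Control in DP, then ADX with Sham, ADX+CORT with ADX, ADX+CORT with Sham and GR KO with Control in HFSC. The edgeR counts were 4, 361, 45, 0, 0 and 150. DESeq2 called 505, 1553, 768, 1278, 53 and 682 genes, and edgeR without the filter on low counts called 894, 1456, 888, 1309, 184 and 840. With only the groups compared the counts were 0, 142, 93, 0, 2 and 155. The cause was not tested. Leaving out 1 library gave 1 to 12, 19 to 226, 0 to 235, 0 to 549, 0 to 4 and 5 to 336 genes. The extremes over 200 were 235 and 549 without ADX replicate 2 and 336 without GR KO replicate 1 in HFSC, and 226 without Control replicate 1 and 213 without GR KO replicate 2 in DP.

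Same-numbered libraries correlated with r of −0.15 to 0.22, so the numbers were not taken as pairs. With a replicate block 10, 470, 9, 0, 0 and 137 genes were called, and of the listed genes only the call of Cd83 was lost. In ADX over Sham DP the block gave Cd74 −0.01 and Cd83 −0.17, both above 0 without it. A crossed block there, chosen after seeing the data, called 444 genes.

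Of 58 log2 fold changes of listed genes, 58 kept direction and side of the threshold with median-of-ratios scaling, 51 with DESeq2 and 41 without the filter, which gave H2-Ab1 −8.4e-05 in ADX over Sham DP. With only the groups compared 56 of 57 did, and Ptprc in ADX over Sham HFSC gave no value. The summed level in ADX DP was 468 CPM with median-of-ratios scaling and 459 CPM with TMM, and the all-gene median of GR KO over Control in DP was 0.07 against 0.17.

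Leaving out 1 library turned the direction of 36 of 232 values. In ADX over Sham DP, Cd74 ran from −0.16 to 0.34, H2-Ab1 from −0.29 to 0.31 and Cd83 from −1.70 to 1.10. In GR KO over Control DP, Cd74 ran from −2.81 to 3.14, H2-Aa from −3.68 to 2.75, H2-Ab1 from −3.51 to 2.32, H2-Eb1 from −3.24 to 2.64, Lyz2 from −3.26 to 3.81, Ptprc from −1.93 to 3.95, Tyrobp from −1.64 to 3.01 and Fcer1g from −2.34 to 2.58. In ADX over Sham HFSC, H2-Aa ran from −1.14 to 1.46 and Ptprc from −6.33 to 0.16. In ADX+CORT over ADX, Cd207 ran from −2.71 to 0.98, Cd74 from −1.39 to 0.04, H2-Aa from −1.03 to 1.56, H2-Ab1 from −0.72 to 0.05, H2-Eb1 from −0.88 to 0.07, Cd83 from −1.68 to 0.55 and Fcer1g from −1.96 to 0.45. In ADX+CORT over Sham, Cd207 ran from −0.28 to 2.22, Cd74 from −0.40 to 1.03, H2-Aa from −0.16 to 0.87, Ptprc from −0.73 to 0.89 and Fcer1g from −0.69 to 1.80. In GR KO over Control HFSC, Cd74 ran from −0.04 to 0.42, H2-Ab1 from −0.37 to 0.25, Ptprc from −0.34 to 1.53, Tyrobp from −0.04 to 0.24 and Fcer1g from −0.07 to 0.16. With 2 libraries per group, changes smaller than this spread were not detectable.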
